A study of Mus musculus with 6 samples.

Results

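The 6 genes described here encode the plasminogen activators urokinase (Plau) and tissue-type activator (Plat), the urokinase receptor (Plaur) and the serpins Serpine2, Serpinb2 and Serpinf1. They were chosen by gene symbol, with earlier results of these data known, from the 29018 genes of the deposited table. Each symbol belonged to 1 Ensembl identifier, and all 6 passed the filter on low counts that left 18221 genes to test. RNA sequencing was done on osteoblasts, the cells that build bone, grown out of the skull vault (calvaria) of neonatal mice and differentiated in culture. There were 3 libraries of wild-type cells (WT) and 3 of NDR1 knockout cells (KO). NDR1 is a kinase related to the Hippo pathway and the product of Stk38. All 6 libraries had been through the differentiation protocol and were made from polyA RNA. Strain, sex, the design of the KO allele, the day of culture, and whether replicates were separate animals or cultures were not given in the sources used here, so p-values speak for these libraries alone, whose spread may be technical.

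Plasminogen is a circulating zymogen that the activators cut into plasmin, a broad serine protease that dissolves fibrin, degrades matrix glycoproteins and activates latent growth factors and pro-metalloproteinases. Urokinase acts mainly on the cell surface, held by its lipid-anchored receptor, whereas tissue-type activator works best on fibrin. Serpins restrain both: the protease cuts the exposed loop of an inhibitory serpin and is trapped in a covalent complex that endocytic receptors remove. Osteoblasts are known to make activators, receptor and inhibitors, and Serpinf1, which encodes the non-inhibitory serpin PEDF (pigment epithelium-derived factor), is a gene of recessive brittle bone disease.

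Total counts ranged from 61461870 to 76159034 per library. Between replicates the median squared difference of scaled counts was 5.71 to 6.64 times what counting gives if each count is 1 independent read. The sources did not state this, so how far replicates differed beyond sampling noise was not settled. Stk38 stood at 4.17, 3.98 and 4.31 FPKM in KO replicates 1 to 3 and at 5.83, 6.20 and 6.35 FPKM in WT, so that it was lower in every KO library but still read (log2 change -0.61 ± 0.05). Of 10 osteoblast markers all were read and tested, with summed levels of 44254 to 46630 CPM in KO and 60351 to 62095 CPM in WT. Of the 10, 6 fell (beside 11.7% of all genes tested) and 1 rose (beside 11.2%). FPKM values are the deposited levels per transcript length and library total, and CPM values are counts relative to TMM-scaled library sizes. Log2 changes are KO over WT ± SE from edgeR's quasi-likelihood test on counts, and a call needs an adjusted p (Benjamini-Hochberg, over all genes tested) under 0.05.

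Both activators, the receptor, Serpine2 and Serpinb2 were higher in KO cultures, and Serpinf1 was lower. Of the 5 genes read in both genotypes all were called, 4 of them as higher, where 22.9% of all genes tested were called, 11.2% as higher and 11.7% as lower. Of those calls 49.0% were higher, against 63.0% on library totals without TMM. Serpinb2 passed the count filter through its KO counts alone, so it had to differ and is left out of these counts. The KO and WT values of each of the other 5 did not overlap, which held for 38.2% of all genes tested. Their median log2 change was 0.48, beside 0.00 over all genes tested. The members were chosen with earlier results of these data known, so these comparisons with all genes tested are a description. The shifts of the 3 genes of the urokinase and tissue-type activator system were of 1.33-fold to 1.47-fold, that of Serpine2 was 1.66-fold, and Serpinf1 fell to 84.5% of its WT level. Libraries were made from whole cultures, in which a change in the number of expressing cells and a change of RNA per cell cannot be told apart.

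**Figure D1:**
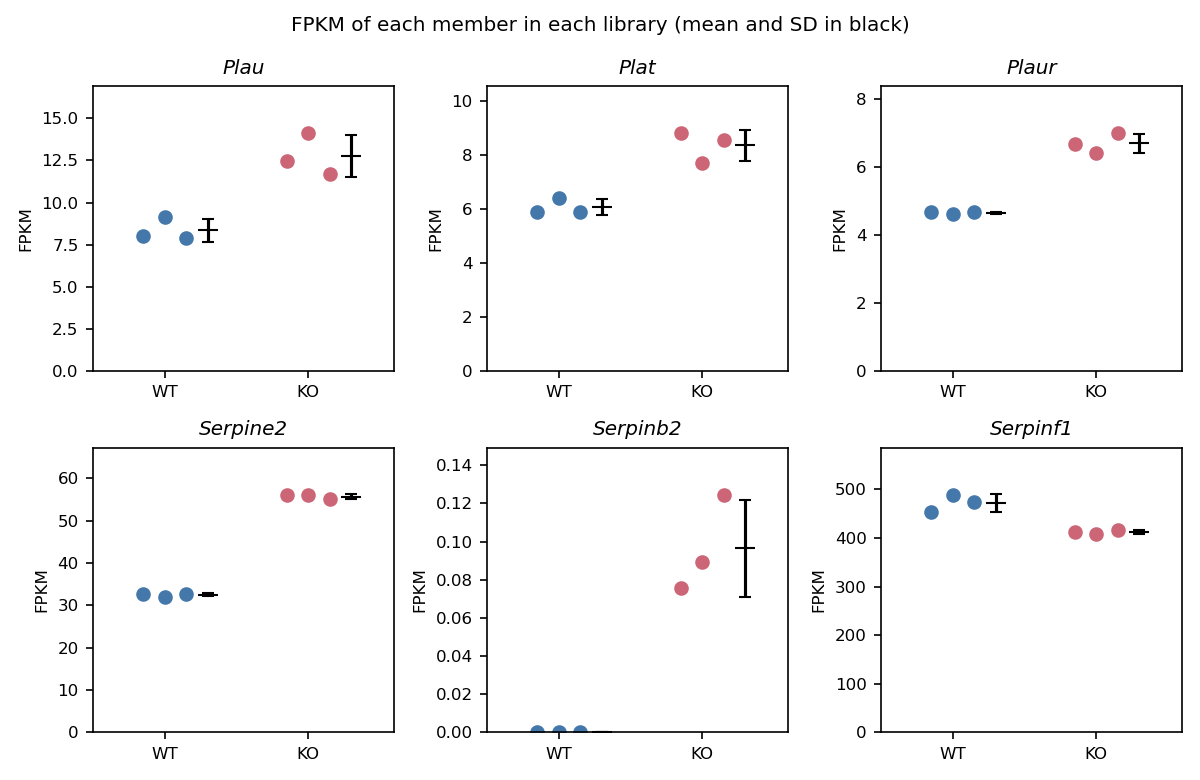
FPKM of Plau, Plat, Plaur, Serpine2, Serpinb2 and Serpinf1 (vertical axes, linear and from 0, each with its own range) in the 3 WT and 3 KO libraries (points), with the mean and SD of each group in black. KO points lie above WT points for 5 genes and below them for Serpinf1, and Serpinb2 is at 0 in each WT library.

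The 250 bases before the transcription start are shown for the members that have an entry in the RefSeq promoter table (build GRCm38.p6). Of the 6 members 4 matched an entry by symbol, and Plau and Plat did not. Each sequence is written 5′ to 3′ on the gene's strand, and capitals mark matches to motifs searched on both strands. These were TGANTCA for AP-1, GGGCGG for the GC box bound by SP factors, TATAAA for the TATA box and CCAAT for the box of that name.
Plaur, chr7:24462233-24462482, plus strand: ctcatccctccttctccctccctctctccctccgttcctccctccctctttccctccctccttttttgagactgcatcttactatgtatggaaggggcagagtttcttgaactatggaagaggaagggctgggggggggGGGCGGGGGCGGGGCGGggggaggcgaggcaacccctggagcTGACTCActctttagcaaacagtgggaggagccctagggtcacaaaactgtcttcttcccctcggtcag
Serpine2, chr1:79858666-79858915, minus strand: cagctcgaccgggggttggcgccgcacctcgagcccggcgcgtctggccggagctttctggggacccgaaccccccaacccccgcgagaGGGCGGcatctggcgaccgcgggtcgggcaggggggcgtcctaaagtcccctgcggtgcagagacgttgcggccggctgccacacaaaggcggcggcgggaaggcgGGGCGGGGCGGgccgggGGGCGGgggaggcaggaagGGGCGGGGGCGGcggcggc
Serpinb2, chr1:107511173-107511422, plus strand: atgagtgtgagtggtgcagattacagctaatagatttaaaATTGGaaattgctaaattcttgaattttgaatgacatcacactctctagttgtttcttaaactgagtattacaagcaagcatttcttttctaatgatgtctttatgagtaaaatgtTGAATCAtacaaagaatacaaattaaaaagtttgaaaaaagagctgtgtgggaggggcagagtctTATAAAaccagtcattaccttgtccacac
Serpinf1, chr11:75422624-75422873, minus strand: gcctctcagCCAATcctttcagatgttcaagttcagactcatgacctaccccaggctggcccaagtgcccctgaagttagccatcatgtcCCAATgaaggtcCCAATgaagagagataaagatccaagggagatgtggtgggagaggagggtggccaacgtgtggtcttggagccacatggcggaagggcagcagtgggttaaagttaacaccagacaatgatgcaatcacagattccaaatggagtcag

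The 4 windows differed in base composition and motif content. The Serpine2 window was 78.8% G and C and held 6 GC boxes, of which the pair beginning 55 and 50 bases before the start overlap by a base, and it held none of the other motifs. The Plaur window (59.6% G and C) held 3 GC boxes, 2 of them overlapping by a base, and 1 AP-1 match 69 bases before the start. The window of Serpinb2 (32.4% G and C) held an AP-1 match 94 bases and a TATA box 29 bases before the start, and a CCAAT box on the other strand. That of Serpinf1 (51.6% G and C) held 3 CCAAT boxes and no match to the other motifs. Over 32851 windows of the same length in the table, the median was 52.4% G and C, and 6.75% held an AP-1 match, 32.7% a GC box, 12.4% a TATA box and 33.8% a CCAAT box. Serpinb2 has a second listed start further downstream, and the same AP-1 and TATA letters stand 181 and 116 bases before it. These matches describe letters only, since binding was not measured in these libraries. A link between motifs and the direction of change was not tested.

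Plau encodes urokinase, the activator used in cell-surface proteolysis (ENSMUSG00000021822, chromosome 14, 20886728 to 20893453, plus strand, in the deposited coordinates, whose build was not settled). It stood at 12.5, 14.1 and 11.7 FPKM in KO replicates 1 to 3 and at 8.01, 9.11 and 7.92 FPKM in WT replicates 1 to 3. The lowest KO library was 2.55 FPKM above the highest WT library. The means were 12.7 ± 1.24 and 8.35 ± 0.665 FPKM (SD, n = 3 each), with a log2 change of 0.56 ± 0.08 (edgeR, Benjamini-Hochberg adjusted p = 6.06e-04). Plau had the largest relative spread of the 5 genes read in both genotypes, with a coefficient of variation of 9.74% in KO and 7.96% in WT on the FPKM scale.

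Plat encodes tissue-type plasminogen activator, the fibrin-dependent activator (ENSMUSG00000031538, chromosome 8, 23247743 to 23272860, plus strand). Its FPKM values were 8.80, 7.71 and 8.55 in KO and 5.90, 6.40 and 5.88 in WT. Each KO library lay above each WT library, by at least 1.31 FPKM. The log2 change was 0.41 ± 0.06 (edgeR, Benjamini-Hochberg adjusted p = 6.38e-04), from 6.06 ± 0.291 to 8.35 ± 0.57 FPKM. The 2 activators summed to 20.2 to 21.8 FPKM in KO libraries and 13.8 to 15.5 FPKM in WT libraries, and urokinase mRNA exceeded tissue-type activator mRNA in all 6 libraries, by 1.36 to 1.83 times in KO and 1.35 to 1.42 times in WT. Endothelial cells are a well-known source of Plat. Of 6 endothelial markers tested 2 fell (beside 11.7% of all genes tested) and none rose. Their summed levels were 8.996 to 11.3 CPM in KO and 15.3 to 15.6 CPM in WT. In limma on FPKM with its filter 1 endothelial marker was lower. The part of endothelial cells in the Plat values was not tested.

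Plaur encodes the receptor that holds urokinase at the plasma membrane (ENSMUSG00000046223, chromosome 7, 24161909 to 24175393, plus strand). It was read at 6.67, 6.42 and 6.99 FPKM in KO and at 4.66, 4.62 and 4.66 FPKM in WT. The SD of the WT libraries was 0.0268 FPKM, and the lowest KO library stood 1.76 FPKM above the highest of them. The log2 change was 0.48 ± 0.07 (edgeR, Benjamini-Hochberg adjusted p = 5.07e-04). The ratio of urokinase to receptor FPKM was 1.67 to 2.20 in KO and 1.70 to 1.97 in WT. These ranges overlap, so the ratio of ligand to receptor mRNA did not separate the genotypes.

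Macrophages also make urokinase and its receptor, and their markers were higher in the same libraries. Of 17 macrophage markers 15 rose (beside 11.2% of all genes tested) and none fell, with a median log2 change of 1.37. Their summed levels were 1064 to 1178 CPM in KO and 418 to 553 CPM in WT, and none was at 0 in either group. Of 6 osteoclast markers tested 2 were lower (beside 11.7% of all genes tested), none was higher and 4 were not called. The median log2 change of the osteoclast markers was -0.19. Their summed levels were 236 to 240 CPM in KO and 455 to 460 CPM in WT. The part of these cells in the higher Plau, Plaur and Serpinb2 was not tested.

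Serpine2 encodes protease nexin-1, an inhibitor of thrombin, urokinase and tissue-type activator that is held on cell-surface heparan sulphate (ENSMUSG00000026249, chromosome 1, 79771914 to 79836413, minus strand). It stood at 56.0, 56.1 and 55.0 FPKM in KO and at 32.7, 32.0 and 32.7 FPKM in WT. The groups were 22.3 FPKM apart at their nearest values, while SDs within KO and WT were 0.598 and 0.39 FPKM. The log2 change was 0.73 ± 0.02 (edgeR, Benjamini-Hochberg adjusted p = 1.24e-08), which placed it at rank 36 of 18221 by p. By size it was less exceptional, since 13.4% of tested genes changed by more.

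Serpinb2 encodes plasminogen activator inhibitor type 2, an intracellular and secreted inhibitor of urokinase that is induced in activated macrophages and keratinocytes (ENSMUSG00000062345, chromosome 1, 107439153 to 107460265, plus strand). It had 15, 14 and 24 counts in KO replicates 1 to 3 and 0 in each WT library, in libraries of 61461870 counts or more. Exact Poisson intervals (95%, counting error only) ran from 8.40 to 24.7, 7.65 to 23.5 and 15.4 to 35.7 counts in KO, and reached up to 3.69 counts in each WT library. They take 1 count as 1 independent read, which was not stated in the sources. Low values of 4 recurred, as for F2rl2 in each WT library, Fgg in KO replicate 3 and F9 in WT replicate 3. The intervals may therefore be too narrow. Set against a floor of 3 counts for the WT sum of 0, taken over the group, the level was 16.2-fold higher in KO. The KO counts were taken as read, and the intervals above were not used. This fold is a lower bound only if 1 count is 1 read. The gene was called (edgeR, Benjamini-Hochberg adjusted p = 0.00480), but it passed the count filter through its KO counts alone. The call therefore adds no support. The KO level of Serpinb2, 0.0964 ± 0.0252 FPKM (SD, n = 3), was the lowest of the 6, and Plaur, the next in order, stood 69.4 times higher. Of 8 neutrophil markers 4 were in the table and none had enough reads to test. They summed to at most 0.175 CPM in any library, with Ly6g and Mpo at 0 in KO and Camp at 0 in WT. Of 6 epithelial markers 5 were in the table and 1 was tested and not called, and they summed to at most 0.877 CPM, with Krt5 at 0 in KO and Krt18 at 0 in WT. DESeq2 called 1 epithelial marker lower.

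Serpinb2 lies in a cluster of clade B serpins, and the deposited coordinates of the adjacent Serpinb10 overlap it on the same strand. Serpinb10 had 9 counts in KO replicate 3 and 0 in the other 5 libraries, and how reads in the shared stretch were assigned was not given. Serpinb7, on the other side, was read at 16 counts over the KO and 16 over the WT libraries. Serpinb8, whose product inhibits furin-like proteases, was the one neighbour in the cluster with enough reads to test and stood at 1.66 ± 0.156 FPKM in KO against 0.74 ± 0.0784 FPKM in WT (log2 change 1.12 ± 0.13, edgeR's Benjamini-Hochberg adjusted p = 1.24e-04).

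Serpinf1 encodes PEDF, a secreted serpin that inhibits no protease, binds collagen and restrains vessel growth (ENSMUSG00000000753, chromosome 11, 75300595 to 75313527, minus strand). It was the most abundant of the 6 mRNAs, with 411.9, 409 and 417 FPKM in KO and 453, 489 and 475 FPKM in WT. All 3 KO values lay below the lowest WT value, by at least 36.1 FPKM. The means were 413 ± 4.13 and 472 ± 17.7 FPKM, and the log2 change was -0.24 ± 0.03 (edgeR, Benjamini-Hochberg adjusted p = 1.11e-04). In WT it ranked above 99.8% of genes with any count.

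The order of the 6 FPKM levels was the same in both genotypes: Serpinf1, Serpine2, Plau, Plat, Plaur and Serpinb2. Neighbours in this order did not overlap within either genotype, the nearest pair being Plat and Plaur in KO (mean ratio 1.25). Changes of unequal size altered the distances. Serpinf1 exceeded Serpine2 by 13.9, 15.2 and 14.5 times in WT replicates 1 to 3 and by 7.36, 7.30 and 7.59 times in KO. The ratio of Serpine2 to Plau, in contrast, was 3.98 to 4.72 in KO and 3.52 to 4.13 in WT, and these ranges overlap. Against Plat the ratio of Serpine2 was 6.37 to 7.27 in KO and 5.01 to 5.56 in WT, without overlap. The smallest p an exact permutation test of 3 against 3 libraries can give is 0.1, and no test was made of these ratios.

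**Figure D2:**
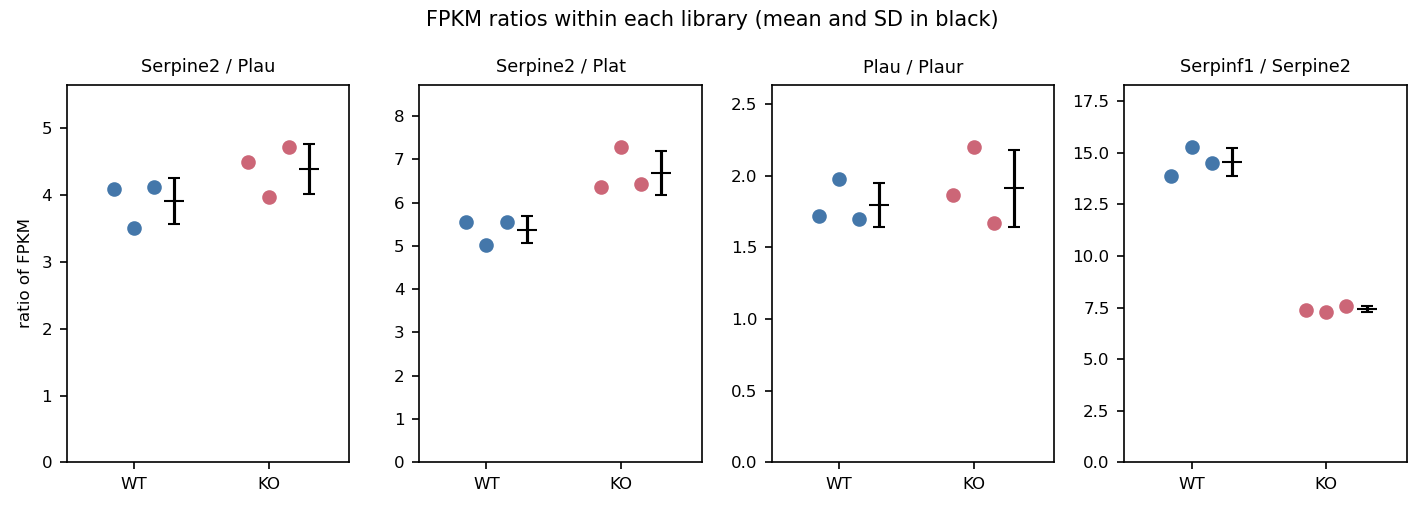
Ratios of FPKM within each library (vertical axes, linear and from 0) for Serpine2 to Plau, Serpine2 to Plat, Plau to Plaur and Serpinf1 to Serpine2, in the 3 WT and 3 KO libraries (points) with mean and SD in black. The groups separate for Serpine2 to Plat and for Serpinf1 to Serpine2 and overlap for the other ratios.

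Among the other serpins analysed here, several clade B serpins were higher in KO and the serpins tied to collagen and complement were lower. Of these 37 genes 15 passed the count filter. Of the 15, 6 rose (40%, beside 11.2% of all genes tested) and 2 fell (13.3%, beside 11.7%), with a median log2 change of 0.43. Clade B serpins are mostly intracellular guards against leukocyte proteases. Serpinb9b changed by 1.69 ± 0.07, from 1.96 ± 0.0288 to 6.54 ± 0.275 FPKM, and Serpinb1a, an inhibitor of neutrophil elastase, by 0.88 ± 0.06, from 16.7 ± 1.29 to 31.7 ± 0.762 FPKM. Serpinb6b (1.02 ± 0.15), Serpinb9 (0.43 ± 0.04), an inhibitor of granzyme B, and Serpinb6a (0.36 ± 0.03) rose as well. Serpinb6a, Serpinb6b, Serpinb9, Serpinb9b and Serpinb1a have close copies in the mouse genome, and how reads that fit several copies were counted was not given, so their split is uncertain. The macrophage markers given above moved with this group, and their part in it was not tested.

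The serpins that fell were Serpinh1 and Serping1. Serpinh1 encodes HSP47, the collagen chaperone of the endoplasmic reticulum, and stood at 851 ± 16.9 FPKM in KO and 1038 ± 31.3 FPKM in WT, with a log2 change of -0.34 ± 0.03. Serping1 encodes the C1 inhibitor, which also blocks plasma kallikrein, and changed by -0.24 ± 0.03, the same direction as Serpinf1. The ratio of Serpinf1 to Serpinh1 FPKM was 0.474 to 0.495 in KO and 0.449 to 0.463 in WT. Serpina3n, an acute-phase serpin (log2 change 0.27 ± 0.13), and Serpini1, which encodes neuroserpin, an inhibitor of tissue-type activator (0.15 ± 0.17), were not called (edgeR, Benjamini-Hochberg adjusted p = 0.166 and 0.597). Serpina3n was called without KO replicate 3 (log2 change 0.39, edgeR's adjusted p = 0.0313, while the 14 alternatives went up to 0.474). Serpinf2, which encodes the plasmin inhibitor alpha-2-antiplasmin, had 4 counts over the KO and 10 over the WT libraries and was not tested.

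**Figure D3:**
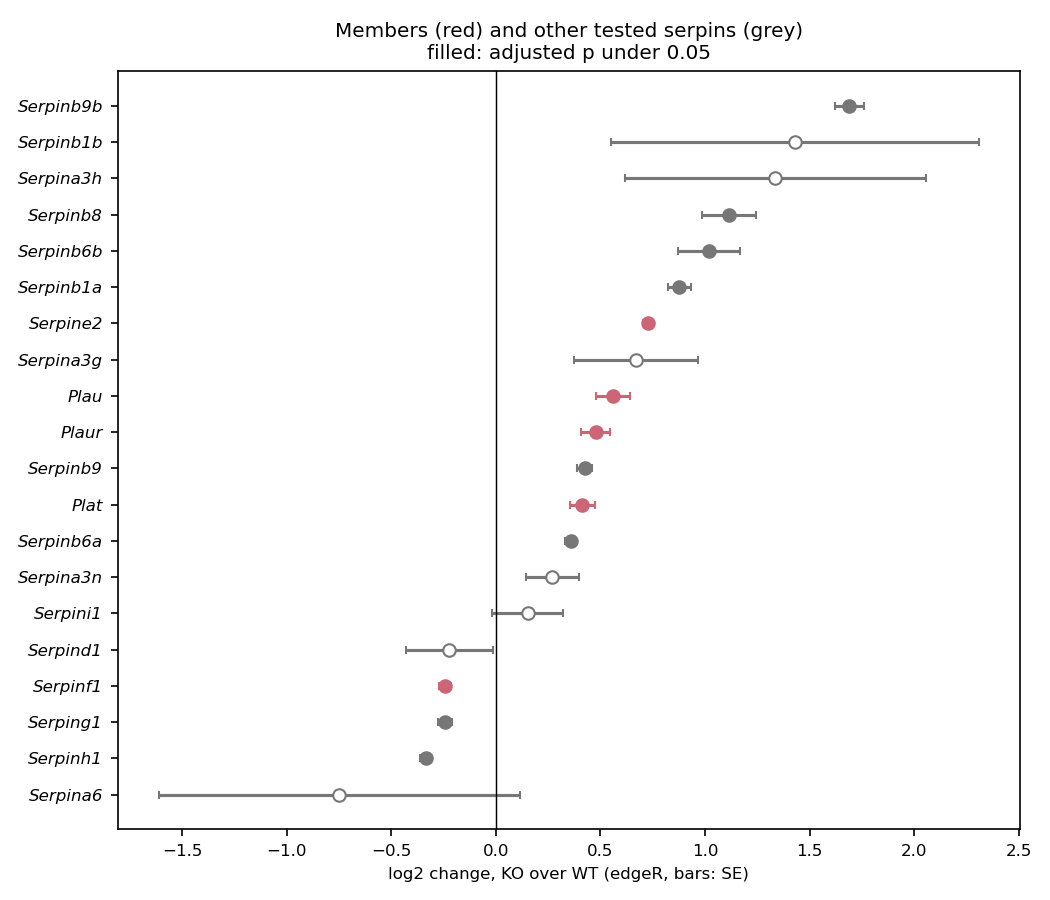
Log2 change, KO over WT, with SE bars (horizontal axis) for 5 members (red) and 15 other serpins tested (grey), filled where the adjusted p was under 0.05. Serpinb2, without counts in WT, is left out, and called serpins range from Serpinh1 at -0.34 to Serpinb9b at 1.69.

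Plasminogen mRNA was at the floor of detection, whereas several of its cell-surface partners were abundant. Plg had 3 counts in 1 WT library and 0 in the other 5, and Vtn, which encodes vitronectin, a matrix ligand of the urokinase receptor, was at or under 0.118 FPKM in both group means. Of 20 receptors, cofactors and clearance receptors 19 were tested. Of these 8 rose (42.1%, beside 11.2% of all genes tested) and 4 fell (21.1%, beside 11.7%), with a median log2 change of 0.01. Calls in this list included small changes, such as 0.07 for Lrp1, and no share was computed for genes of like abundance. Anxa2 and S100a10 form the annexin A2 complex that binds tissue-type activator and plasminogen. Anxa2 rose by 0.16 ± 0.03 (224 ± 6.65 against 194 ± 5.21 FPKM). S100a10 stood at 75.6 ± 0.872 against 69.2 ± 4.38 FPKM, and its log2 change of 0.08 ± 0.05 was not called (edgeR, adjusted p = 0.283 after Benjamini-Hochberg). Plgrkt, a plasminogen receptor, was at 0.01 ± 0.09 and not called either (edgeR, adjusted p = 0.949).

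Clearance receptors and integrins moved both ways. Lrp1, the endocytic receptor that removes serpin-protease complexes together with the urokinase receptor, stood at 107 ± 1.63 FPKM in KO and 98.3 ± 0.519 FPKM in WT. Its log2 change of 0.07 ± 0.02 was called (edgeR, Benjamini-Hochberg adjusted p = 0.0274), but the call was lost on leaving out KO replicate 1, KO replicate 3 or any WT library (adjusted p = 0.0529 to 0.128 in edgeR, and from 9.04e-04 over all 14 alternatives). Igf2r, which binds the urokinase receptor and plasminogen, rose by 0.25 ± 0.02, and Sorl1, a sorting receptor for urokinase complexes, changed by -0.64 ± 0.07. Mrc2, the collagen receptor that associates with the urokinase receptor, changed by -0.22 ± 0.02, from 109 ± 1.44 to 96.7 ± 1.34 FPKM. Itgam and Itgb2, the chains of the leukocyte integrin Mac-1 that partners the urokinase receptor, rose by 1.37 ± 0.11 and 1.29 ± 0.11, alongside the macrophage markers. Itgb3, a vitronectin receptor chain abundant in osteoclasts, changed by -0.80 ± 0.07, and Itgb5 by -0.29 ± 0.02. Of 6 osteoclast markers tested 2 were lower and 4 were not called. The part of macrophages and osteoclasts in the integrin values was not tested.

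Coagulation and fibrin genes moved both ways. Of 21 listed genes 19 were in the table and 12 were tested, of which 3 rose (25%, beside 11.2% of all genes tested) and 1 fell (8.33%, beside 11.7%), with a median log2 change of 0.04. Pros1, which encodes the anticoagulant protein S, rose by 0.45 ± 0.03 (51.7 ± 0.397 against 36.5 ± 0.548 FPKM), and Procr, the endothelial protein C receptor gene, by 0.85 ± 0.13. F3, which encodes tissue factor, the starter of coagulation, rose by 0.15 ± 0.04 (edgeR, Benjamini-Hochberg adjusted p = 0.0214), a call that was lost without KO replicate 3, WT replicate 1 or WT replicate 2 (adjusted p = 0.0798, 0.0740 and 0.0830, within a range of 0.00389 to 0.0830 over 14 alternatives). F13a1, the transglutaminase that crosslinks fibrin and is made by macrophages, changed by -0.96 ± 0.10 while the macrophage markers rose. Without WT replicate 2 the genes called lower numbered 2, and limma on FPKM without a filter called 5 as higher.

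**Figure D4:**
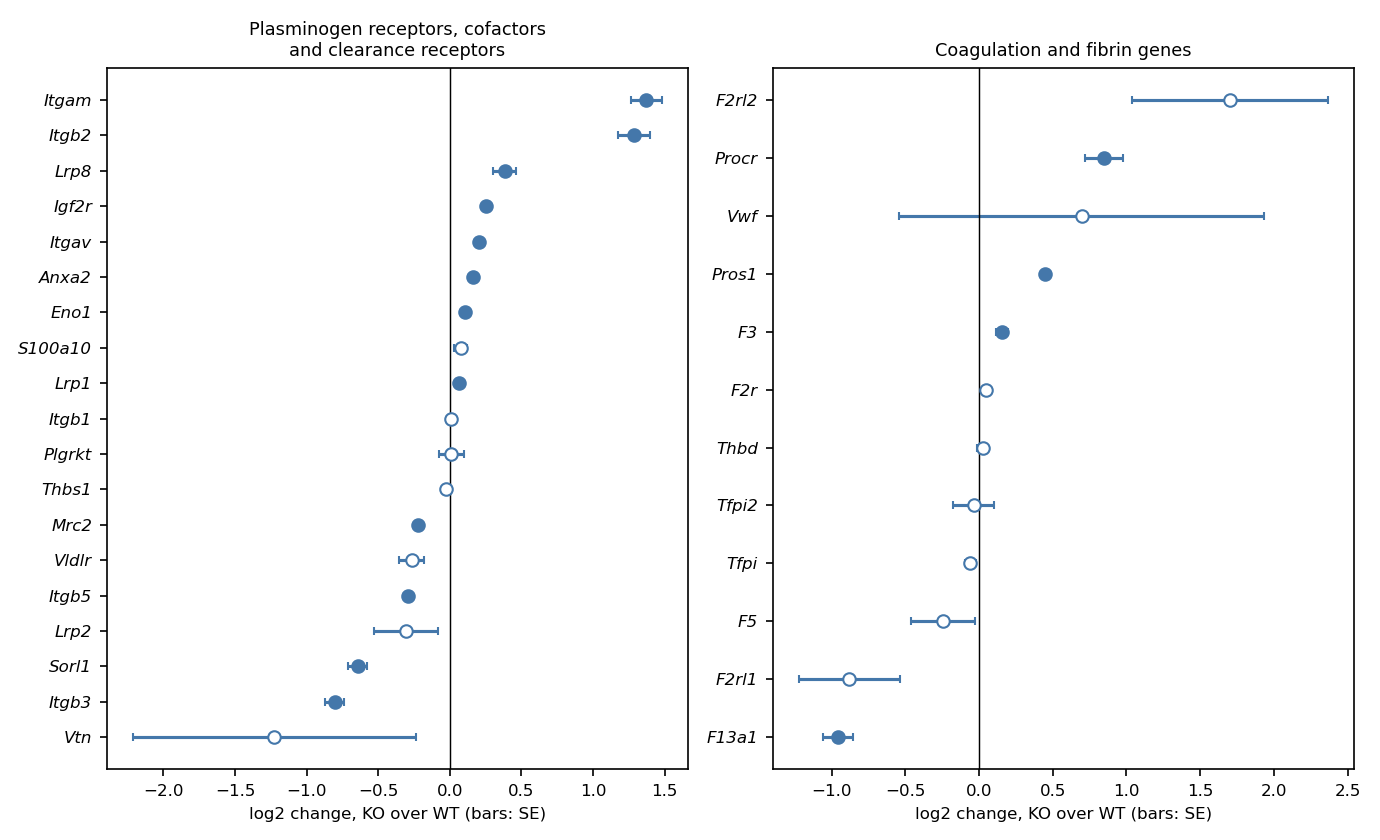
Log2 change, KO over WT, with SE bars (horizontal axes) for the tested receptors, cofactors and clearance receptors (left) and the tested coagulation and fibrin genes (right), filled where the adjusted p was under 0.05. Itgam at 1.37 and Itgb2 at 1.29 are the highest on the left, and called genes lie on both sides of 0 in both panels.

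Genes of nearest pattern were sought for each member by the root mean square difference of log2 CPM over the 6 libraries, each gene centred on its mean, among 12833 genes. This measure selects genes for a like change between genotypes, so the changes of those found are a description. For Plau the nearest was Mmp3, which encodes stromelysin-1, a pro-enzyme that plasmin can activate (difference 0.03, log2 change 0.57 ± 0.13), and then the mitochondrial carrier Sfxn5. Plat was nearest to the calcium channel gene Cacna1a (0.02) and to Tmc6, and Plaur to the semaphorin Sema6d (0.02) and Igfbp7 (0.03), which encodes a secreted matrix protein. For Serpine2 they were the ferritin heavy chain gene Fth1 (0.02) and the heparan sulphate 6-O-sulphotransferase Hs6st2 (0.03), and for Serpinf1 the glycosyltransferase Galnt4 and the histone methyltransferase Setd1b (both 0.02). Serpinb2 had no close match, with Rnps1-ps at 0.26 and C4bp at 0.44.

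**Figure D5:**
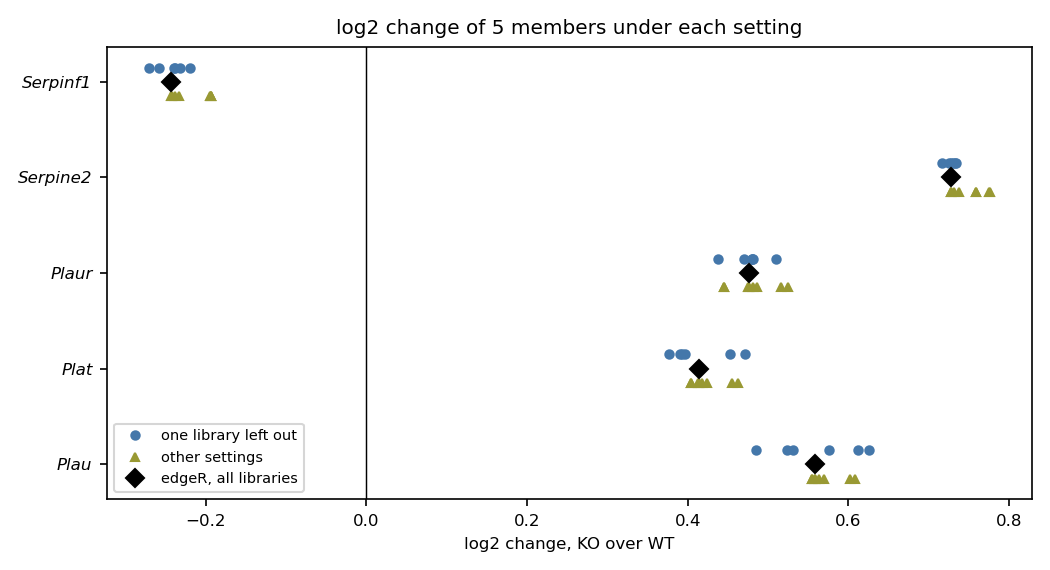
Log2 change, KO over WT (horizontal axis), of 5 members in edgeR with all libraries (black), with 1 library left out (blue circles) and under the other settings (olive triangles). Plau ranged from 0.49 to 0.63, Serpine2 from 0.72 to 0.78 and Serpinf1 from -0.27 to -0.19, and each point lies on the same side of 0 as the black one.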

How the data were processed

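The members and gene lists were chosen with earlier results of these data known. The deposited table gave, per the file headers, whole-number counts and FPKM per gene and library. The authors' FPKM are scaled to transcript length and library total. The tools cutadapt 1.9, HISAT2 2.0.4 and StringTie 1.3.4d, and a human build despite mouse identifiers, are listed in the submitters' processing notes. Counting, strand and annotation were not given in the sources used here. Of 27342 identifiers shared with GENCODE M21, 1.81% had its coordinates, and none of the 6 members did. No other annotation release was compared, so the build was not settled.

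The count test was edgeR's two-sided quasi-likelihood test (version 4.0.16, R 4.3.3) with genotype alone in the model, TMM scaling and filterByExpr. Benjamini-Hochberg adjusted p-values under 0.05 were calls. SE was taken from the log2 change and the F statistic (its size over the root of F). The code was tested on simulated data. Alternatives were DESeq2 1.42.0, its size factors, no TMM, no count filter, limma 3.58.1 on log2 FPKM (pseudocount 1 or 0.1, genes averaging 1 FPKM or more, or no filter), a replicate block and leaving out each library.

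Named genes were the 6 members, up to 6 called genes of lowest p in each list, 12 fixed genes of the pathway and the 2 genes of nearest pattern per member (mean CPM of at least 1, prior count 0.5, no predicted genes). A further gene fixed for naming is not reported here and was left out of the list counts. Serpinb6b, Serpinb7, Serpinb10 and Mrc2 were named after their values were seen. Cell types without printed values were adipocytes (5 of 6 markers lower, summed 128 to 137 CPM in KO and 270.4 to 281 CPM in WT, Cidec at 0 in KO), skeletal muscle (1 of 4 lower, 4.94 to 5.79 and 7.37 to 8.68 CPM, Ckm at 0 in KO) and glia (1 of 4 higher, 36.8 to 39.6 and 24.5 to 29.1 CPM). Over all genes tested 11.7% were lower and 11.2% higher. In limma on FPKM with its filter 1 adipocyte marker was lower. The muscle count was 0 in limma with a pseudocount of 0.1, in limma without a filter and without WT replicate 2.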

Additional observations from a re-analysis of the deposited data

How the results depend on the processing

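The 5 members read in both genotypes kept their direction and their call in every alternative. Over edgeR, DESeq2 and limma adjusted p went up to 0.0114 for Plau, 0.00927 for Plat, 0.00303 for Plaur, 4.31e-05 for Serpine2 and 0.0218 for Serpinf1. Serpinb2 was called wherever it was tested (adjusted p up to 0.0255 over the same methods), which adds no support because it had no WT counts. Serpinb2 was removed by the mean FPKM filter and stood at only 0.13 on the log2(FPKM + 1) scale without that filter, since the pseudocount far exceeds its level. Over all genes 2048 were called higher and 2131 lower. Lower calls numbered 1267 in limma on log2(FPKM + 1), 1254 with a pseudocount of 0.1 and 1246 without a filter. Calls were 49.0% higher with TMM and 63.0% higher on library totals, where the edgeR fit differed in that scaling alone. In limma on log2(FPKM + 1), which differed in more than scaling, 64.4% were higher, and the part of scaling there was not tested. Leaving out 1 library gave 1588 to 1731 higher and 1712 to 1893 lower calls. Among coagulation and fibrin genes 5 were higher in limma without a filter, and leaving out 1 library gave 1 to 2 lower, the 2 without WT replicate 2. Same-numbered libraries did not deviate together (correlations of -0.04, -0.02 and -0.01 between KO and WT), and no library correlated best with its own number. These values cannot show whether same-numbered cultures were paired, which the labels do not say. With the replicate block 1912 genes were higher and 1976 lower, and the 5 members read in both genotypes kept their calls. Depth limits Serpinb2, Serpinb10, Serpinf2 and Plg, whose counts were near the floor. Of the single genes named beside the members, Sfxn5 and Setd1b lost their calls in limma without a filter (adjusted p = 0.0567 and 0.0646).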

Other observations

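The genes next to the 6 members along the chromosomes, 3 on each side in the deposited coordinates, were read as a description. Of 36 such neighbours 23 were tested, of which 5 were called higher, none was called lower and the others did not pass the test. That is 21.7% called, near the 22.9% of all genes tested. The largest change lay beside Serpine2, where Wdfy1, which encodes an endosomal FYVE-domain protein of Toll-like receptor signalling, had 14676 counts over the KO and 3309 over the WT libraries (log2 change 2.02, edgeR, Benjamini-Hochberg adjusted p = 1.75e-08), while Mrpl44, which lies between them, was at -0.04 and was not called. Beside Plaur the potassium channel gene Kcnn4 rose by 1.01, and beside Plau the heparan sulphate enzyme gene Ndst2 and the kinase gene Camk2g rose by 0.31 and 0.21. Serpinb8, given above, was the fifth. No tested neighbour of Plat or Serpinf1 was called. These neighbours were looked at after their values were known, and no shared control was tested.

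F7, which encodes coagulation factor VII, was too low to test but was read in each KO library (7, 16 and 10 counts) and at 0 counts in each WT library, and it was named after these values were seen.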
